A study of Mus with 6 samples.

Results

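Microglia are the resident macrophages of the brain, and the 33 genes described here mark them or carry out their receptor signalling. The members were taken by gene name from a list of homeostatic and receptor-signalling genes. The rule sets no threshold on their values, but the list was drawn up with earlier results of these data known. All 33 were found once each among the 54532 genes of the table. The tissue was basolateral amygdala, where sensory input reaches the fear circuit, of mice labelled female. Of the 6 RNA-seq libraries, 3 were labelled wild type (WT) and 3 CNTNAP4-KO (KO), numbered 1 to 3 in each group. The labels give no strain, age, allele or treatment, and do not tell whether libraries are separate animals, so the p-values measure the spread between these libraries, which may be technical. Cntnap4 encodes a contactin-associated membrane protein related to neurexins.

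Microglia depend on signalling through the CSF1 receptor for survival, and the transcription factor PU.1, encoded by Spi1, sets up their gene programme. In the undisturbed brain they carry purinergic and chemokine receptors that sense nucleotides and neuronal fractalkine, and a set of surface proteins rarely found on other macrophages. Receptors such as TREM2 and Fc receptors have no signalling tail of their own and pass their signal through adaptors with an immunoreceptor tyrosine-based activation motif (ITAM). Engulfed material is broken down in lysosomes rich in cathepsins. When microglia become reactive, they typically lower the homeostatic genes and raise genes of lipid handling and lysosomes.

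Libraries held 15933029 to 17789798 reads, recovered from FPKM (fragments scaled by gene length and library size). Cntnap4, the targeted gene, was at 3.53, 3.904 and 2.15 FPKM in the WT libraries and 1.08, 1.19 and 1.28 in the KO libraries, with all KO libraries below all WT libraries and a log2 fold change of -0.92 with an SE of 0.18 (adjusted p = 0.302, limma). Genes with a mean of at least 1 FPKM were tested with limma on log2(FPKM + 1), and a fold change is on that scale, which understates the change of low genes. Of 13087 genes tested, 1 passed an adjusted p of 0.05 (0.00764%). The glutamate transporter Slc17a7 was at 285, 280.0 and 208 FPKM in the WT libraries and 364, 272 and 201 in the KO libraries, and Rspo2, a marker of basolateral projection neurons, at 2.95 ± 0.863 and 3.14 ± 0.886 FPKM (mean ± SD, n = 3 and 3). Markers of the labelled tissue were thus present in both groups, but not all at like levels: log2 fold changes were positive for 9 of 9 projection neuron markers (median 0.68), of which Neurod6 was at 7.06, 18.3 and 16.97 FPKM in the WT libraries and 27.1, 34.1 and 28.8 in the KO libraries.

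Most microglial members were at lower average levels in KO, but no single member passed the threshold over all genes. Log2 fold changes were negative for 29 of the 31 members tested (93.5% of members, against 48.7% of all genes tested), with a median of -0.29 against 0.0076 over all genes. All 3 KO values lay below all 3 WT values for 12 members (38.7%, against 10.1% of all genes). At an unadjusted p under 0.05 there were 10 members lower in KO (32.3%, against 7.25% of all genes) and 0 higher (against 7.05%). After every library was scaled to an equal total, the genes at that p split into 580 lower and 1224 higher, against 949 and 923 as deposited, and 9 members were lower. The smallest adjusted p of a member was 0.302, 0 of 31 passed, and limma voom on recovered reads also called 0 members. For a single gene, an exact permutation test of 3 libraries against 3 cannot give a p below 0.1. Members share a cell type, so these counts are not over independent genes. In whole tissue, fewer microglia, less RNA of these genes per microglial cell and a different mix of other cells cannot be told apart. The member counts without each library are given with the settings. Without WT3 the median was -0.15, with 23 of 31 log2 fold changes negative (against 49.1% of all genes). At an unadjusted p under 0.05, 7 of 31 members were then lower, against 1263 of 13087 genes. Without WT3, 12 members had no overlap, against 2500 of 13087 genes.

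Levels of the 33 members spanned a wide range. The lysosomal proteases Lgmn and Ctss were the most abundant per length, at a mean of 41.6 and 39.7 FPKM in WT, followed by Csf1r at 20.9. Lgmn is also expressed by other brain cells, so its level is not that of microglia alone. The lowest were Irf8 and Ptprc, which stayed below the filter and were not tested. Irf8, an interferon-regulatory factor of myeloid cells, was at 0.727, 0.619 and 1.08 FPKM in the WT libraries and 0.803, 0.646 and 0.551 in the KO libraries. Ptprc, the leukocyte antigen CD45, was at 0.593, 0.242 and 0.239 FPKM in the WT libraries and 0.209, 0.142 and 0.192 in the KO libraries, without overlap. Summed over the 33 members, FPKM was 263, 259.6 and 340.2 in WT and 224, 210.3 and 265 in KO. The WT and KO sums overlapped, since KO3 lay above WT1 and WT2.

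**Figure D1:**
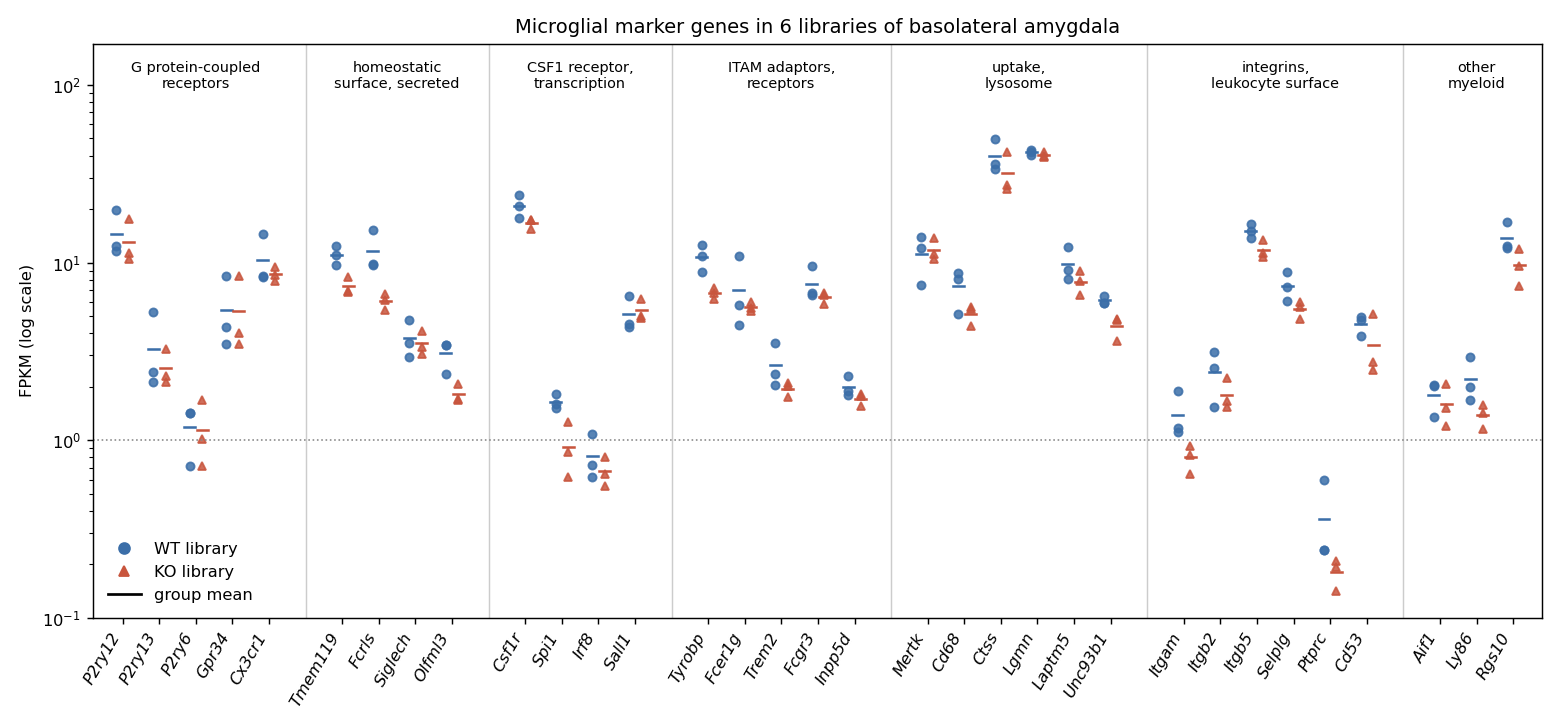
FPKM on a log scale (y axis) of the 33 members (x axis, grouped by role) in each WT library (blue circles) and KO library (red triangles), with group means as short lines; the dotted line is the filter of 1 FPKM. Fcrls, Tyrobp and Tmem119 show all KO values below all WT values, while the purinergic receptors overlap.

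**Figure D2:**
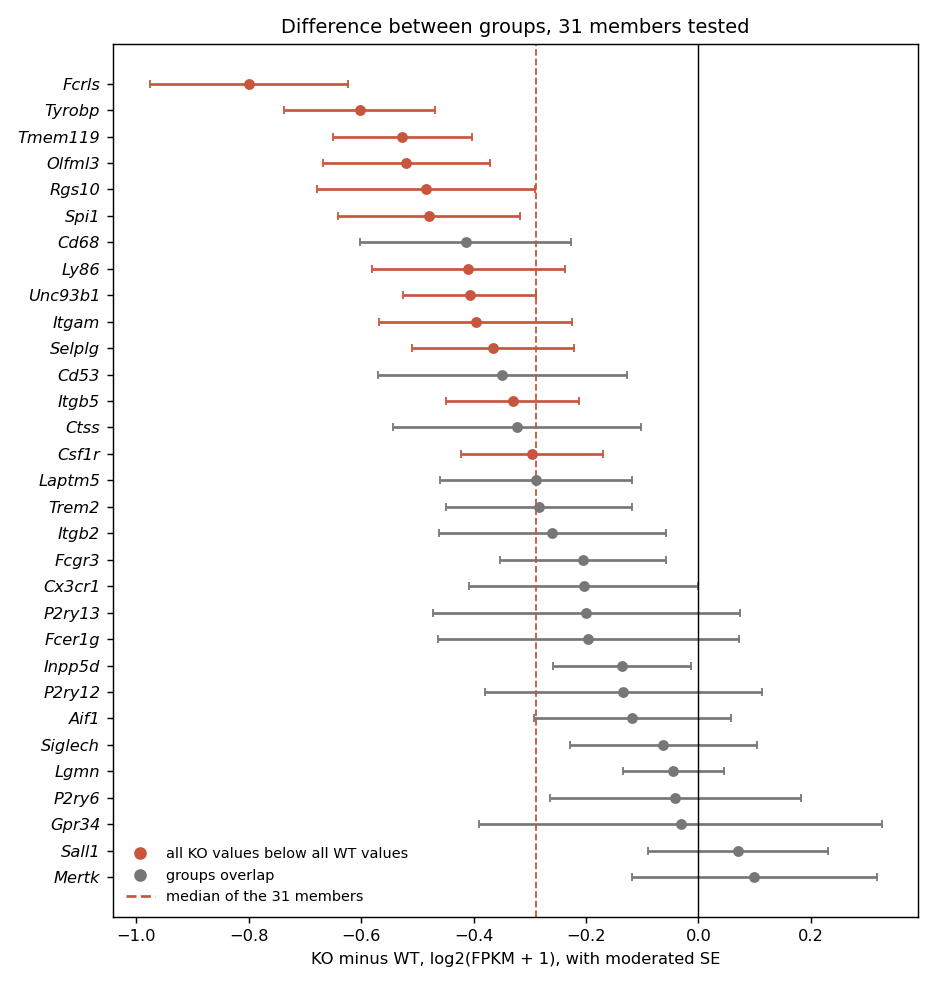
KO minus WT on the log2(FPKM + 1) scale (x axis) for the 31 members tested (y axis), as fitted value with its moderated SE; red marks the 12 members whose groups do not overlap, grey the other 19, and the dashed line the median of the members. Fcrls has the lowest value and Mertk the highest.

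All 5 G protein-coupled receptors had WT and KO values that overlapped, with a median log2 fold change of -0.13, and 0 passed the test. P2ry12, the ADP receptor that guides process movement toward injury, was at 11.6, 12.4 and 19.7 FPKM in the WT libraries and 10.5, 11.4 and 17.5 in the KO libraries (ENSMUSG00000036353; chromosome 3 from 59216272 to 59262871). WT3 and KO3 were high in their groups and the other libraries lay close together. Its log2 fold change was -0.13 with an SE of 0.25 (adjusted p = 0.811, limma), and 0.090 without WT3. P2ry13, a second ADP receptor encoded next to it, was at 2.41, 2.12 and 5.25 FPKM in the WT libraries and 2.12, 2.304 and 3.26 in the KO libraries. Its log2 fold change of -0.20 went to 0.11 without WT3. The ratio of P2ry13 to P2ry12 per length was 0.216 ± 0.04802 in WT and 0.197 ± 0.00932 in KO, less apart than the WT spread.

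Gpr34, a receptor for lysophosphatidylserine, was at 4.35, 3.49 and 8.44 FPKM in the WT libraries and 3.495, 4.001 and 8.45 in the KO libraries. The libraries numbered 3 were the highest in each group and nearly equal, and its log2 fold change was -0.032, or 0.28 without WT3. Cx3cr1, the fractalkine receptor, was at 8.39, 8.32 and 14.4 FPKM in the WT libraries and 8.55, 7.85 and 9.43 in the KO libraries, where WT3 stood apart from 5 similar libraries. Without WT3 its log2 fold change went from -0.20 to 0.035. P2ry6, the UDP receptor linked to phagocytosis, was low and scattered, at 1.43, 1.43 and 0.718 FPKM in the WT libraries and 1.69, 0.719 and 1.01 in the KO libraries, with a log2 fold change of -0.041, or -0.21 without WT3. Of the members, 5 overlap expressed protein-coding genes on the opposite strand: P2ry12 and P2ry13 overlap Med12l, Gpr34 overlaps Cask, Cx3cr1 overlaps Wdr48, and the CSF1 receptor gene Csf1r overlaps Hmgxb3. Cx3cr1 also overlaps Gorasp1 and Csrnp1 on its own strand. With strand use unknown (not given in the sources used here), reads from shared exons, if any, cannot be told apart.

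Among homeostatic surface and secreted proteins, 3 of 4 showed no overlap, with KO lower (against 10.1% of all genes), and Fcrls had the lowest fold change of the members. Fcrls, a scavenger receptor related to Fc receptors and used to sort microglia, was at 9.78, 9.704 and 15.1 FPKM in the WT libraries and 5.43, 6.15 and 6.68 in the KO libraries (ENSMUSG00000015852; chromosome 3 from 87250758 to 87263738). The KO libraries lay close together below the lowest WT library, and WT3 was the highest. The mean was 11.5 ± 3.12 in WT against 6.09 ± 0.631 in KO, a ratio of 0.527, with a log2 fold change of -0.80 with an SE of 0.18 (adjusted p = 0.302, limma). Without WT3 it was -0.60.

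Tmem119, a transmembrane protein used to tell microglia from other macrophages, was at 11.1, 9.703 and 12.4 FPKM in the WT libraries and 8.34, 6.88 and 6.84 in the KO libraries (ENSMUSG00000054675; chromosome 5 from 113793729 to 113800516). The groups did not overlap, with a ratio of 0.666 and a log2 fold change of -0.53 with an SE of 0.12 (adjusted p = 0.302, limma). WT3 moved this gene little, and without it the log2 fold change was -0.45. Olfml3, a secreted olfactomedin-like protein that mural and meningeal cells also express, was at 3.45, 2.35 and 3.42 FPKM in the WT libraries and 1.71, 1.68 and 2.08 in the KO libraries. WT2 was the nearest of the WT libraries to KO, and the log2 fold change was -0.52 with an SE of 0.15 (adjusted p = 0.302, limma). Siglech, a sialic acid-binding lectin, was at 2.94, 3.52 and 4.74 FPKM in the WT libraries and 3.33, 3.05 and 4.13 in the KO libraries. Its groups overlapped, its log2 fold change was -0.062, and without WT3 it was 0.086.

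Csf1r, the receptor for CSF1 and IL-34, was at 17.8, 20.9 and 23.99 FPKM in the WT libraries and 17.4, 15.4 and 17.4 in the KO libraries, with means of 20.9 ± 3.07 in WT against 16.8 ± 1.16 in KO. Its highest KO library lay just below its lowest WT library, and the log2 fold change was -0.30 with an SE of 0.13 (adjusted p = 0.352, limma), or -0.20 without WT3. About 1749 reads per WT library stood behind it. Spi1 was at 1.51, 1.83 and 1.604 FPKM in the WT libraries and 1.27, 0.621 and 0.856 in the KO libraries. Its KO libraries were all below WT, with a log2 fold change of -0.48 with an SE of 0.16 (adjusted p = 0.305, limma), but only about 76 reads in an average WT library and 41 in a KO library were behind it. Sall1, a zinc finger factor that maintains microglial identity, was at 4.498, 4.36 and 6.502 FPKM in the WT libraries and 5.02, 4.88 and 6.22 in the KO libraries. It was 1 of the 2 members with a positive log2 fold change (0.070, adjusted p = 0.848 in limma), or 0.23 without WT3, and its groups overlapped.

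Of the ITAM adaptors, Tyrobp was lower in every KO library and Fcer1g was not. Tyrobp, which encodes DAP12, the adaptor of TREM2, was at 10.9, 8.89 and 12.6 FPKM in the WT libraries and 6.21, 6.74 and 7.19 in the KO libraries (ENSMUSG00000030579; chromosome 7 from 30413760 to 30417585). The 3 KO values lay close together, below the lowest WT value, and the log2 fold change was -0.60 with an SE of 0.13 (adjusted p = 0.302, limma). Its mean was 10.8 ± 1.86 in WT against 6.71 ± 0.491 in KO, a ratio of 0.622. Fcer1g, the common gamma chain of Fc receptors, was at 5.75, 4.43 and 10.9 FPKM in the WT libraries and 5.36, 5.54 and 5.97 in the KO libraries. WT3 stood well above the other 5 libraries, and without it the log2 fold change went from -0.20 to 0.13. The ratio of Fcer1g to Tyrobp per length was 0.527, 0.498 and 0.865 in WT and 0.864, 0.822 and 0.831 in KO.

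The receptors that use these adaptors, and Inpp5d downstream, had overlapping groups. Trem2, a lipid-sensing receptor, was at 2.04, 2.36 and 3.51 FPKM in the WT libraries and 2.01, 2.09 and 1.75 in the KO libraries, with a log2 fold change of -0.28 with an SE of 0.17 (adjusted p = 0.45, limma). Its lowest library was KO3 and its highest WT3, and without WT3 the log2 fold change was -0.12. Fcgr3, a low-affinity IgG receptor, was at 6.53, 6.76 and 9.52 FPKM in the WT libraries and 6.77, 5.81 and 6.57 in the KO libraries, where WT3 was high and the other 5 were alike. Its log2 fold change was -0.21, or -0.052 without WT3. Fcgr3 has close paralogs beside it on chromosome 1, and the handling of reads shared with them was not stated. Inpp5d, the inositol phosphatase SHIP1 that limits ITAM signalling, was at 1.79, 1.88 and 2.29 FPKM in the WT libraries and 1.83, 1.77 and 1.55 in the KO libraries, with a log2 fold change of -0.14, or -0.065 without WT3. Of this role, 1 of 5 members had non-overlapping groups (against 10.1% of all genes), and the median log2 fold change was -0.21 and -0.065 without WT3.

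Genes of uptake and breakdown were uneven. Unc93b1, which carries Toll-like receptors to endosomes, was at 5.95, 5.93 and 6.504 FPKM in the WT libraries and 4.82, 3.63 and 4.74 in the KO libraries, without overlap between groups. Its log2 fold change was -0.41 with an SE of 0.12 (adjusted p = 0.303, limma), with the WT libraries close together. Cd68, a lysosomal membrane protein that rises in phagocytic cells, was at 8.08, 5.16 and 8.76 FPKM in the WT libraries and 5.47, 4.404 and 5.601 in the KO libraries. WT2 lay among the KO libraries, and the log2 fold change was -0.41 with an SE of 0.19 (adjusted p = 0.368, limma). Ctss, the protease cathepsin S, was at 33.5, 35.8 and 49.8 FPKM in the WT libraries and 27.4, 26.03 and 41.9 in the KO libraries. KO3 lay above WT1 and WT2, and the log2 fold change was -0.32 and -0.15 without WT3.

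Laptm5, a lysosomal protein of blood-derived and microglial cells, was at 8.09, 9.13 and 12.3 FPKM in the WT libraries and 7.89, 6.53 and 8.99 in the KO libraries, with a log2 fold change of -0.29, or -0.13 without WT3. Lgmn, the asparaginyl endopeptidase, was nearly level, at 43.1, 41.8 and 40.1 FPKM in the WT libraries and 42.1, 39.9 and 39.1 in the KO libraries. Its log2 fold change was -0.044 with an SE of 0.089, which was the smallest SE among the members. Mertk, a receptor for engulfing apoptotic cells that astrocytes also express, was at 7.47, 12.1 and 13.99 FPKM in the WT libraries and 10.5, 11.1 and 13.7 in the KO libraries. WT1 was the lowest library, and the log2 fold change was 0.099, or -0.14 without it.

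Integrins and leukocyte surface genes lay lower in KO for 5 of 5 tested, 3 of them without overlap (against 10.1% of all genes). Their median log2 fold change was -0.35, or -0.25 without WT3. Itgam, the CD11b chain of the complement receptor, was at 1.17, 1.11 and 1.89 FPKM in the WT libraries and 0.824, 0.643 and 0.9301 in the KO libraries. All KO values were below 1 FPKM and all WT values above it, with a log2 fold change of -0.40 with an SE of 0.17 (adjusted p = 0.354, limma), or -0.25 without WT3. Its partner Itgb2 was at 1.54, 2.54 and 3.14 FPKM in the WT libraries and 1.66, 1.53 and 2.23 in the KO libraries, where WT1 lay among the KO libraries and the log2 fold change was -0.26, or -0.10 without WT3. The ratio of Itgam to Itgb2 per length was 0.598 ± 0.162 in WT and 0.445 ± 0.0456 in KO. Itgb5, an integrin chain of microglia and several other brain cells, was at 13.7, 15.1 and 16.6 FPKM in the WT libraries and 10.8, 11.3 and 13.4 in the KO libraries, with a log2 fold change of -0.33 with an SE of 0.12 (adjusted p = 0.318, limma). Selplg, the ligand of P-selectin, was at 7.296, 6.09 and 8.82 FPKM in the WT libraries and 5.64, 4.79 and 6.01 in the KO libraries, with a log2 fold change of -0.37 with an SE of 0.14 (adjusted p = 0.333, limma). KO3 was only just below WT2 for Selplg. Cd53, a leukocyte tetraspanin, was at 4.73, 3.83 and 4.96 FPKM in the WT libraries and 2.48, 2.75 and 5.12 in the KO libraries, and KO3 was its highest library.

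Of the remaining myeloid markers, Ly86, which encodes the MD-1 partner of a Toll-like receptor homologue, was at 1.68, 1.99 and 2.94 FPKM in the WT libraries and 1.16, 1.43 and 1.57 in the KO libraries. Its groups did not overlap, and the log2 fold change was -0.41 with an SE of 0.17 (adjusted p = 0.347, limma), or -0.25 without WT3. Rgs10, a regulator of G protein signalling that neurons also express, was at 16.998, 12.3 and 12.1 FPKM in the WT libraries and 9.54, 7.38 and 11.99 in the KO libraries. KO3 lay just under WT3, and the log2 fold change was -0.48 with an SE of 0.19 (adjusted p = 0.337, limma). Aif1, which encodes the calcium-binding protein IBA1 stained in most microglial histology, was at 2.02, 1.34 and 2.05 FPKM in the WT libraries and 1.51, 1.204 and 2.06 in the KO libraries. Its groups overlapped, the log2 fold change was -0.12, or -0.052 without WT3, and it rested on about 48 reads per WT library. Set apart for expression in other brain cells were 7 members (Mertk, Itgb5, Lgmn, Rgs10, Unc93b1, Sall1 and Olfml3). These 7 include the 2 members with positive log2 fold changes. Their median was -0.33, and that of the other 24 tested was -0.29.

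WT3 was the highest of the 6 libraries for 23 of 31 members (74.2%), against 18.2% of all genes tested. KO2 was the lowest for 14 members (45.2%, against 14.4%). For 20 members (64.5%) WT3 was the highest WT library and KO3 the highest KO library, which held for 16.5% of all genes. P2ry12, P2ry13, Gpr34 and Ctss showed this most plainly. Of the 12 members without overlap between groups, 6 showed it (Fcrls, Tyrobp, Itgam, Itgb5, Selplg and Ly86). The other 6 did not (Tmem119, Olfml3, Csf1r, Spi1, Unc93b1 and Rgs10). The median log2 fold change was -0.27 for the 20 members with this pattern and -0.30 for the 11 without it. Reads on mitochondrial DNA took 8.34% in WT3 and 6.31% in KO3, against 4.0998% to 5.22% in the other 4. The summed FPKM of 5 blood genes was 431 in WT3, against 133 to 185 in the other 5. Endothelial markers summed to 201 in WT3 against 132 to 154, and mural markers to 146 against 70.6 to 114. The part of these values in the members' levels was not tested.

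**Figure D3:**
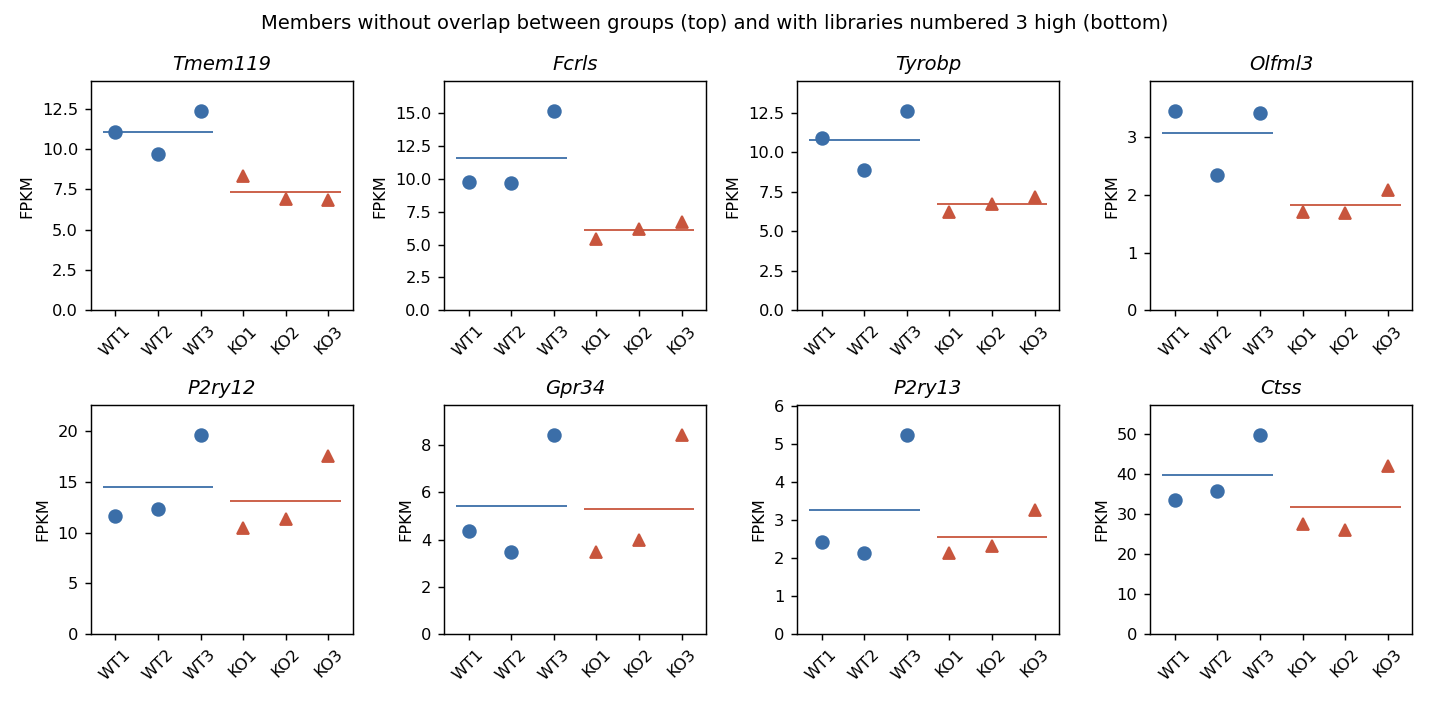
FPKM (y axis, from 0) in each library (x axis) for 8 members, WT as blue circles and KO as red triangles, with group means as lines. The upper 4 have no overlap between groups. In the lower 4, and in Fcrls and Tyrobp above, WT3 and KO3 are the highest of their groups.

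Ligands of the members' receptors, most of them made by neurons and astrocytes, had values on both sides of 0. Of 8 of 9 ligands and related ectoenzymes tested, 6 had log2 fold changes below 0, 2 were lower and 0 higher at an unadjusted p under 0.05, and 0 passed over all genes, with a median of -0.21. For this list and those below, the shares over all genes tested were 48.7% below 0, and 7.25% lower and 7.05% higher at that p. Il34, the neuronal ligand of the CSF1 receptor, was at 28.9 ± 1.94 and 25.8 ± 2.74 FPKM, and Csf1 was at 3.47, 3.698 and 3.42 FPKM in the WT libraries and 4.08, 4.19 and 3.896 in the KO libraries. All KO values of Csf1 lay above all WT values, with a log2 fold change of 0.16 with an SE of 0.092 (adjusted p = 0.446, limma). Cx3cl1, the fractalkine of neurons, was at 166 ± 25.5 and 183 ± 24.1 FPKM and Gas6, a bridging ligand of MERTK, at 40.1 ± 3.41 and 37.2 ± 3.03 FPKM. Both were named after their values were seen. Pros1, the other bridging ligand, was at 4.38 ± 0.835 and 3.29 ± 0.474 FPKM. Apoe, a lipid carrier of glia that TREM2 binds, was at 678, 587 and 679.7 FPKM in the WT libraries and 423, 398 and 363 in the KO libraries, with a log2 fold change of -0.71 with an SE of 0.12 (adjusted p = 0.302, limma), the lowest of this list. Its groups did not overlap, and neither did those of Clu (262 ± 33.5 and 209.6 ± 9.33 FPKM), another lipid carrier of astrocytes.

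Transforming growth factor beta maintains the homeostatic programme. Of 12 of 13 genes of that pathway tested, 7 had log2 fold changes below 0, 2 were lower and 0 higher at an unadjusted p under 0.05, and 0 passed over all genes, with a median of -0.030. Tgfb1, its microglial ligand, was at 1.82 ± 0.3503 and 1.36 ± 0.253 FPKM, with overlap. Tgfb2 was at 4.41, 2.49 and 2.301 FPKM in the WT libraries and 1.94, 1.83 and 1.74 in the KO libraries and Ltbp3, which stores latent ligand in the matrix, at 7.44 ± 0.929 and 5.94 ± 0.425 FPKM, both without overlap. Downstream of ITAM adaptors 8 of 18 genes were tested, of which 6 had log2 fold changes below 0, 0 were lower and 2 higher at an unadjusted p under 0.05, and 0 passed over all genes, with a median of -0.13. Pik3r1, a regulatory subunit of phosphoinositide 3-kinase found in most cells, was at 11.3, 16.2 and 15.1 FPKM in the WT libraries and 22.4, 22.7 and 20.3 in the KO libraries, and Blnk, an adaptor of myeloid and B cells, at 0.794, 0.614 and 1.06 FPKM in the WT libraries and 1.402, 1.67 and 1.21 in the KO libraries. In both, KO lay above WT without overlap. The kinase Lyn was at 2.25 ± 0.619 and 1.5999 ± 0.492 FPKM, the phosphatase gene Ptpn6 at 1.28 ± 0.392 and 0.891 ± 0.134 FPKM and the inhibitory lectin Cd33 at 1.22 ± 0.303 and 1.01 ± 0.101 FPKM, each with overlap.

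Toll-like receptor genes showed no common direction. Of 7 of 17 tested, 3 had log2 fold changes below 0, 0 were lower and 0 higher at an unadjusted p under 0.05, and 0 passed over all genes, with a median of 0.052. Irak1, a kinase of the pathway, was at 8.602 ± 0.351 and 9.57 ± 0.469 FPKM, Cd14, a co-receptor for bacterial lipopolysaccharide, at 3.02 ± 0.881 and 2.37 ± 0.351 FPKM and Tlr3, a receptor for double-stranded RNA, at 2.94 ± 1.04 and 2.64 ± 0.341 FPKM. Of the cytokine and chemokine genes, Il1b was at most 0.382 FPKM, Tnf at most 0.185 and Il6 at most 0.0488. Cxcl10, an interferon-induced chemokine, was at 0.1899, 0.0554 and 2.71 FPKM in the WT libraries and 0.135, 0.102 and 0.108 in the KO libraries, high in WT3 alone. Ccl12 was at 1.89, 0.232 and 1.76 FPKM in the WT libraries and 0.3401, 0.107 and 0.226 in the KO libraries and Ccl6 at 0.625, 0.904 and 1.12 FPKM in the WT libraries and 0.475, 0.386 and 1.251 in the KO libraries, each with overlap. These 6 were named after their values were seen. Of 3 of 13 genes of this list tested, 2 had log2 fold changes below 0, 0 were lower and 0 higher at an unadjusted p under 0.05, and 0 passed over all genes, with a median of -0.23, where Il18 was at 12.3 ± 1.23 and 10.2 ± 1.303 FPKM and Cxcl14, a chemokine that neurons also make, at 53.6 ± 8.42 and 45.2 ± 2.14 FPKM.

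Other genes used as microglial markers, outside the 33, were more often lower than higher in KO. Of 29 of 37 tested, 21 had log2 fold changes below 0 (against 48.7% of all genes), with a median of -0.11, or -0.032 without WT3. At an unadjusted p under 0.05, 6 were lower and 2 higher (against 7.25% and 7.05% of all genes), and 0 passed over all genes. C1qa was at 44.8, 36.2 and 49.3 FPKM in the WT libraries and 26.3, 19.02 and 24.7 in the KO libraries, and the 3 chains of complement C1q were all without overlap, with log2 fold changes of -0.87, -0.65 and -0.62. Adgrg1, an adhesion receptor of microglia and neural precursors, was at 17.97 ± 3.43 and 12.9 ± 0.807 FPKM and Csf2ra, a cytokine receptor chain, at 7.96 ± 0.2401 and 6.16 ± 0.807 FPKM. Mef2c, a factor of both microglia and excitatory neurons, was at 25.98, 46.004 and 35.2 FPKM in the WT libraries and 68.004, 55.8 and 47.2 in the KO libraries, above WT in every KO library. It was also counted among the 9 projection neuron markers, at their median of 0.68. Genes that microglia raise when activated did not lie higher as a group. Of 18 of 25 tested, 13 had log2 fold changes below 0, with a median of -0.20, or -0.078 without WT3. At an unadjusted p under 0.05, 5 were lower and 0 higher, and 0 passed over all genes. Lpl, lipoprotein lipase, was at 3.05, 2.41 and 3.69 FPKM in the WT libraries and 1.77, 0.754 and 2.15 in the KO libraries, Lyz2, a lysozyme of macrophages, at 12.9999, 8.06 and 8.55 FPKM in the WT libraries and 5.27, 4.12 and 6.73 in the KO libraries and Ctsd, cathepsin D, at 96.3, 88.2 and 106 FPKM in the WT libraries and 74.1, 74.7 and 80.9 in the KO libraries. In each of these 3 the KO values all lay below the WT values, with log2 fold changes of -0.69, -0.76 and -0.33. Astrocytes, neurons and vessels express several genes of this list, so its values are not those of microglia alone.

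Border macrophage markers summed to lower values in every KO library than in any WT library, but none passed over all genes. The summed FPKM of 14 border macrophage genes was 13.8 to 43.8 in WT, highest in WT1, and 6.94 to 11.2 in KO. Of the 5 tested, 5 had log2 fold changes below 0, with a median of -0.92. At an unadjusted p under 0.05, 3 were lower and 0 higher, and 0 passed over all genes. These 5 included Cd74 and the class II histocompatibility chains H2-Aa, H2-Ab1 and H2-Eb1, so the median and the sums mostly reflect these genes. Cd74 alone was at 22.2 FPKM in WT1. H2-Aa was at 4.05, 1.46 and 1.33 FPKM in the WT libraries and 0.715, 0.338 and 0.453 in the KO libraries. Pf4, a chemokine of border macrophages and platelets, was at 1.26, 1.298 and 0.986 FPKM in the WT libraries and 0.253, 0.07998 and 0.0842 in the KO libraries, with 17, 15 and 12 reads in WT and 3, 1 and 1 in KO. Mrc1 was at 0.596 ± 0.174 and 0.3799 ± 0.184 FPKM and Cd163 at 0.627 ± 0.263 and 0.489 ± 0.204 FPKM, each with overlap between groups. In this list, 0 of the 14 genes were at 0 in every library. Cbr2, another gene of this list, was at 0.506 ± 0.144 and 0.561 ± 0.301 FPKM, and was named after its values were seen. Ccr2 of monocytes was at most 0.108 FPKM and Ly6c2 at most 0.176. S100a8 of neutrophils was at 3.19 ± 0.976 and 3.28 ± 2.05 FPKM. The 12 lymphocyte genes summed to 2.84, 8.73 and 17.9 in WT and 18.6, 20.7 and 14.1 in KO (FPKM), most of it from Trbc2 and Cd4 in the libraries other than WT1. Trbc2, a constant chain of the T cell receptor, was at 1.004, 8.02 and 10.5 FPKM in the WT libraries and 17.9, 20.1 and 11.7 in the KO libraries, with KO above WT and a log2 fold change of 1.53 with an SE of 0.62 (adjusted p = 0.341, limma). Cd4 was at 0.199, 0.124 and 6.96 FPKM in the WT libraries and 0.362, 0.315 and 2.08 in the KO libraries, high in WT3 and KO3, while the T cell marker Cd3e was at most 0.0595 FPKM and the B cell marker Cd79a at most 0.367. Cd4 and Trbc2 were named after their values were seen. WT1, the highest library for border macrophage genes, was the highest for 3 of the 31 microglial members, and without WT1 the members' median was -0.34. The part of border macrophages in the members' values was not tested.

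Other cell types of the dissected piece also differed between the libraries. Log2 fold changes were negative for 11 of 12 astrocyte markers (median -0.21), 10 of 10 oligodendrocyte precursor markers (-0.43), 9 of 9 mural markers (-0.32) and 9 of 9 meningeal markers (-0.74), against 48.7% of all genes. At an unadjusted p under 0.05, 1, 7, 3 and 5 of these were lower, in that order, against 7.25% of all genes. The astrocyte count was near that share. The mural share was near that of the microglial members, and the precursor and meningeal shares were larger. KO lay below WT without overlap for 5 of the precursor markers (against 10.1% of all genes). Log2 fold changes were positive for 12 of 12 oligodendrocyte markers (0.49). At that p, 1 of 12 was higher, near the 7.05% of all genes, and 5 of 9 projection neuron markers were higher. Endothelial markers had a median of -0.091. The summed FPKM of 12 astrocyte markers was 736, 764 and 1006 in WT and 717, 695 and 795 in KO, with WT3 the highest library, as for the microglial members. The meningeal sum was highest in WT1, at 883 against 222 to 524 in the others. No marker of these lists passed over all genes (0 calls in limma), and their part in the microglial values was not tested.

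**Figure D4:**
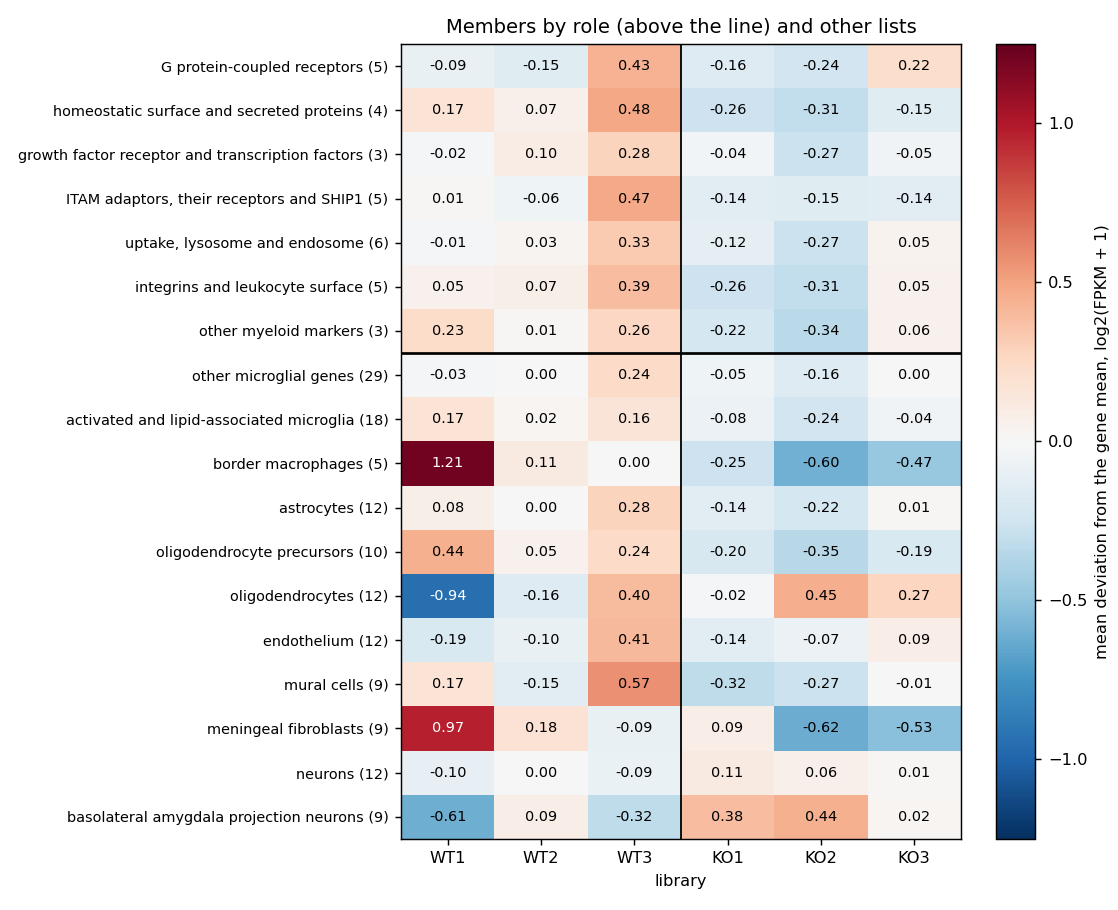
Mean deviation of each list from its gene means on the log2(FPKM + 1) scale (color and printed value) in the 6 libraries (x axis), for the members by role above the line and other lists below it (y axis, tested genes in parentheses). WT3 is the highest library in all 7 member roles, and border macrophage and meningeal lists are highest in WT1.

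Shorter genes tended to be lower in KO across the table. Protein-coding genes of 1000 to 2000 bases had a median log2 fold change of -0.17, and those of 5000 bases or more 0.090. The 31 members had a median length of 2841 bases. The 9 members of 2000 to 3000 bases had a median of -0.20, against -0.081 for all protein-coding genes of that length. The 6 members of 1000 to 2000 bases had -0.34 against -0.17, and the 2 below 1000 bases -0.40 against -0.25. The 10 members of 3000 to 5000 bases had -0.29 against -0.014, and the 4 of 5000 bases or more -0.27 against 0.090. With the length trend removed in each library, the members' median was -0.23, and Fcrls, Tmem119 and Tyrobp were at -0.72, -0.44 and -0.48. Over the 14 alternatives the median of the 31 members ran from -0.37 (without KO3) to -0.15 (without WT3), while that of all genes stayed between -0.0021 and 0.055.

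**Figure D5:**
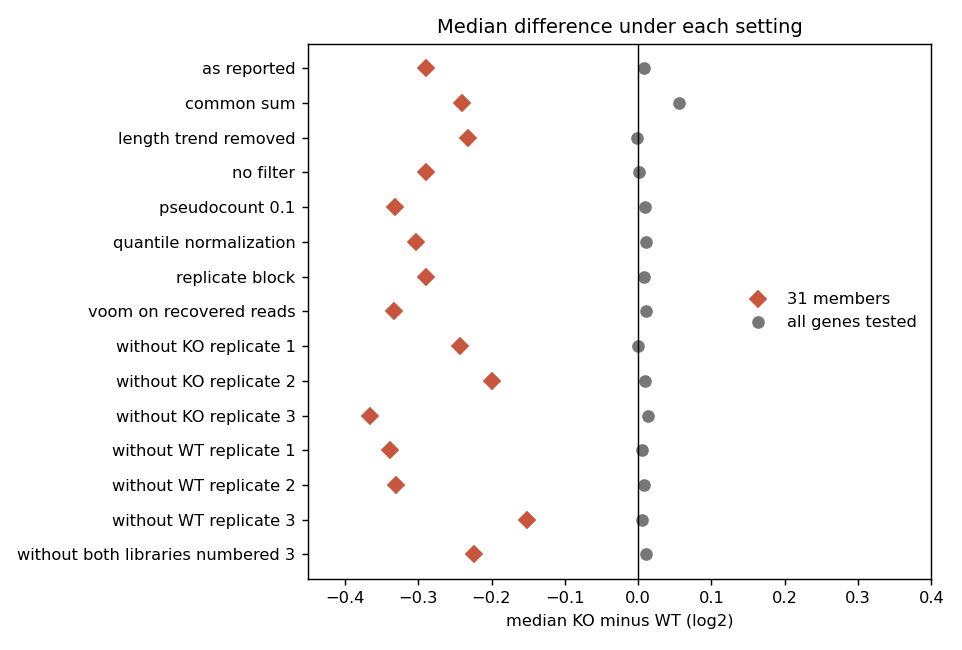
Median KO minus WT (x axis, log2) of the 31 members (red diamonds) and of all genes tested (grey circles) as reported and under 14 other settings (y axis). The members lie left of all genes in each setting, nearest to them without WT3.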

How the data were processed

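The authors deposited 1 table of FPKM for 54532 Ensembl genes in 6 libraries, with gene positions and lengths per the file headers. GRCm38 and mm10 are the builds in the submitters' processing notes; aligner, counter, annotation version and strand use: not given in the sources used here. Libraries followed a Qiagen column extraction and a SMARTER mRNA kit, per the labels' protocols. FPKM times gene length gave whole multiples of 1 step for 100% of values (tolerance 0.01 reads), which recovered the reads.

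Genes with a mean of at least 1 FPKM (13087) were fitted as log2(FPKM + 1) with limma 3.58.1 in R 4.3.3 (variance trend, two-sided), adjusted by Benjamini-Hochberg over all of them, threshold 0.05, after a test on simulated data. SE is the moderated error. The gene lists, and the members, were chosen with earlier results of these data known, so their counts are descriptions and no list was tested. All members are named, with the targeted gene, up to 6 genes of smallest p per context list and defining markers of other myeloid cells. Same-numbered libraries correlated in their deviations from group means across genes (0.17, 0.15 and 0.33), but WT2 correlated more with KO1 (0.28) than with KO2. The reported fit has no replicate block, and the fit with it is an alternative. Alternatives changed the pseudocount, filter, block, scaling, length trend, unit and libraries.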

Additional observations from a re-analysis of the deposited data

How the results depend on the processing

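Over all genes, 1 gene passed an adjusted p of 0.05 in limma, with voom on recovered reads, with a pseudocount of 0.1 and with values rescaled to 1 common sum. The count was 0 with no filter, after removal of the length trend, with quantile normalization, with the replicate block and without both libraries numbered 3, and 0 to 9 without any one library (9 without WT3). Genes lower in KO at an unadjusted p under 0.05 numbered 580 with the common sum, and 499 (without KO2) to 1263 without any one library. Genes with all KO values below all WT values numbered 3348 without both libraries numbered 3 and 1645 to 2500 without any one library, since fewer libraries separate more easily. The members past the threshold were 0 of 31 in every alternative run, and 0 of 33 with no filter. Members lower at an unadjusted p under 0.05 numbered 10 as reported, 13 with the replicate block, 12 with voom and 5 (without KO2) to 11 without any one library, 6 without KO1. Members without overlap numbered 12 to 16, and the members' median ran from -0.37 to -0.15. The replicate block changed no call of a member.

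Of the log2 fold changes of the 31 members, 20 kept their sign in all 14 alternatives, and 411 of 434 values did. Without any one library the range crossed 0 for P2ry12 (-0.35 to 0.090), P2ry13 (-0.39 to 0.11), P2ry6 (-0.22 to 0.10), Gpr34 (-0.36 to 0.28), Cx3cr1 (-0.33 to 0.035), Siglech (-0.19 to 0.086), Sall1 (-0.023 to 0.23), Fcer1g (-0.44 to 0.13), Mertk (-0.14 to 0.27), and Tlr3 (-0.21 to 0.12). It did so also for the median of the G protein-coupled receptors (-0.34 to 0.090) and of the Toll-like receptor genes (-0.046 to 0.14). With the length trend removed P2ry6 was at 0.016, Gpr34 at 0.066, Lgmn at 0.040 and Aif1 at 0.011. With the common sum Gpr34 was at 0.019, Lgmn at 0.013 and the median of the TGF-beta genes at 0.020. Without both libraries numbered 3 Fcer1g was at 0.092, Tlr3 at 0.052 and Gas6 at 0.0074. The cause of these changes was not tested. Depth limits Aif1, Spi1 and P2ry6 most among the members tested, with under 80 reads per library on average.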
